A study of Mus musculus with 4 samples.

Results

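SOX3 binding was examined around 58 genes that encode chromatin remodellers and histone modifiers, out of 22367 protein-coding genes of the GENCODE vM1 annotation. The genes were chosen by name, with earlier results of these data known. Each was given a window of its gene body and 50 kb to each side on the mm9 mouse genome. By complex they comprised 13 genes of BAF, 2 of ISWI, 9 of the CHD family, 12 of the histone deacetylases and NuRD (Kdm1a included), 10 of Polycomb, 6 of DNA methylation, and 6 that acetylate histones or add or remove methylation at H3K4 or H3K27. Every peak that overlapped a window was taken, whatever gene it lay nearest to.

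The study immunoprecipitated SOX3-bound chromatin from neural progenitor (NP) cells, which were made from R1 mouse embryonic stem cells by culture in N2B27, a serum-free medium, for 4 days. The labels give no mutation or transgene for these cells. Peaks were deposited as 1 list for each of 3 biological replicates (replicates 1, 2 and 3), and an input sample without antibody served the authors as background and was not analysed here. With 1 group and no list from control cells, the comparisons below are between genes, between kinds of site and between replicates.

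SOX3 is a transcription factor of the SOXB1 family, which keeps neural progenitors in an undifferentiated state and binds short DNA words close to AACAAT with an HMG domain. Chromatin remodellers such as BAF, ISWI and the CHD proteins use ATP to move or evict nucleosomes. The other proteins add or remove acetyl or methyl groups on histones or DNA, as NuRD, Polycomb and the TET and DNMT enzymes do. Subunits of BAF are exchanged when progenitors become neurons, with Actl6a (BAF53a) used in progenitors and Actl6b (BAF53b) in neurons.

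For each complex, the common site whose lowest score percentile over the 3 lists was highest is shown by its sequence, as an example of what the peaks of all replicates covered. Each is from the plus strand of mm9 (NCBIM37), limited to 300 bases and to bases outside annotated exons. Capitals mark, on either strand, the SOX words AACAAA, in which the last base may also be T, and GACAAA, with the same choice, the POU octamer (ATGCAAAT, or with ATGCTAAT as its other form) and the SOX/POU composite word, in which a stretch that need only resemble a SOX word is joined to the first bases of the octamer.
Actl6b promoter, chr5:137994503-137994744: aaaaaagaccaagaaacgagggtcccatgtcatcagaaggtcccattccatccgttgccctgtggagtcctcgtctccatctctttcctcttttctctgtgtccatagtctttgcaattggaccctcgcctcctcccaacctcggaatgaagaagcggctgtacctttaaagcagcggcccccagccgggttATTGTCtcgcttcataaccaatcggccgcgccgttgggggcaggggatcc
Smarca5 promoter, chr8:83263397-83263614: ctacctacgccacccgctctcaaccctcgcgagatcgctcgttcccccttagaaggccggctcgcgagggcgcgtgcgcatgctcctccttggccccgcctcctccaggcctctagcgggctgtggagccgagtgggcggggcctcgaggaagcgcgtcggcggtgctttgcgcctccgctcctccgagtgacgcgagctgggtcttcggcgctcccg
Chd2 window, intron of Rgma, chr7:80545168-80545467: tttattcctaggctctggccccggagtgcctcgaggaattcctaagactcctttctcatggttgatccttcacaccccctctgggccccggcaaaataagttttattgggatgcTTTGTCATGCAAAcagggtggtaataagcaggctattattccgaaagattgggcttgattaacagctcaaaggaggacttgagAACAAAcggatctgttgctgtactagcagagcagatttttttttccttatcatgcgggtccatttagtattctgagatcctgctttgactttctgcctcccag
Mta1 window, promoter of Crip2, chr12:114378205-114378446: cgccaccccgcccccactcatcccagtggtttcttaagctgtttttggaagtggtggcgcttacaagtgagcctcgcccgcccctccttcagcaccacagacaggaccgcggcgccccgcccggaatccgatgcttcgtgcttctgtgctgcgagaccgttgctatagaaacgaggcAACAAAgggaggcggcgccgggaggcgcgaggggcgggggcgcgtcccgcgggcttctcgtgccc
Jarid2 intron, chr13:44847141-44847440: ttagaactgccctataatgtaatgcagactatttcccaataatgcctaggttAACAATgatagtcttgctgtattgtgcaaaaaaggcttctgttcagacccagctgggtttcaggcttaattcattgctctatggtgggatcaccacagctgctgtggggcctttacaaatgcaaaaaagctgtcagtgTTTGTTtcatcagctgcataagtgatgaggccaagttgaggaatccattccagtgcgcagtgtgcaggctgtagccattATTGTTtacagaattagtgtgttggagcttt
Tet3 intron, chr6:83371857-83372156: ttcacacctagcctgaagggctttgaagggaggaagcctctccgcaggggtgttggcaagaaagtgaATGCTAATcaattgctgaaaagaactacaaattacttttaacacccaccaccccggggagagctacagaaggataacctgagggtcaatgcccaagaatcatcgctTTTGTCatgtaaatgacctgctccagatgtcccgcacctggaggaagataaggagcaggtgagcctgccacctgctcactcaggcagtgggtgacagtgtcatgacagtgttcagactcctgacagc
Upstream of Kdm6b, chr11:69231001-69231231: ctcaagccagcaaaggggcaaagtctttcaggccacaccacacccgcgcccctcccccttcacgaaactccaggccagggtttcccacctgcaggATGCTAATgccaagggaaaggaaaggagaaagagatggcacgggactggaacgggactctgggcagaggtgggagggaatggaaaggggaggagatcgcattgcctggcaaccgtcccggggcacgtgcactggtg
The Jarid2 sequence held 3 SOX words, of which AACAAT occurred at 2 places. The Chd2 sequence held AACAAA and, as its longer run of capitals, the composite word. The Tet3 sequence held GACAAA and the octamer ATGCTAAT, the Kdm6b sequence held that octamer alone, and the GC-rich Smarca5 sequence held none of these words. A match is only a description of the letters.

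A region was made by merging overlapping peaks of the 3 lists, and a common site was a region in which the peaks of all lists shared 1 bp or more. The deposited score is −10 times the log10 of the p-value that MACS gave the peak, with 50 as its floor. Because it depends on library depth, which the lists do not give, each score was also turned into a percentile of its own list. Percentiles of different lists are not on 1 scale. A score of 81.7 was at percentile 49.7 in replicate 2, while 83.3 was at 72.6 in replicate 3. The lists differed in length, with 18816, 8096 and 40543 peaks in replicates 1, 2 and 3, and with 160, 55 and 229 of them in the windows. Replicates 2 and 3 stood closer to each other than to replicate 1: in the windows, 27 of their 55 overlapping pairs of peaks began at the same base (49.1%), against 0 of 46 pairs from replicates 1 and 2 and 0 of 68 pairs from replicates 1 and 3. Every region in the windows with a peak of replicate 2 also held a peak of replicate 3. Leaving out replicate 3 changed neither the 32 members with a common site nor the 44 sites. The main counts are therefore also given without replicate 2. The lists carry no expression data, so the NP identity of the cells could not be checked against markers.

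The windows held 321 of the 51271 regions. Of these, 249 (77.6%) came from 1 replicate, 28 (8.72%) from 2 and 44 (13.7%) from 3, against 79.8%, 9.72% and 10.5% of all regions. All 44 regions with peaks of 3 replicates were common sites, of 5343 in the genome. Per Mb of merged window there were 4.37 common sites, against 2.49 in the merged windows of all protein-coding genes. At least 1 common site was found in the windows of 32 of the 58 genes (55.2%), where the background over all protein-coding genes was 28.7%. Without replicate 2 the count was 38 genes (65.5%) against a background of 39.4%, and with peaks limited to a p-value of 1e-10 or less it was 14 genes (24.1%) against 15.2%. Without replicate 1 it was 34 genes (58.6%) against 37.3%, and with flanks of 100 kb it was 39 genes (67.2%) against 42.1%.

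**Figure D1:**
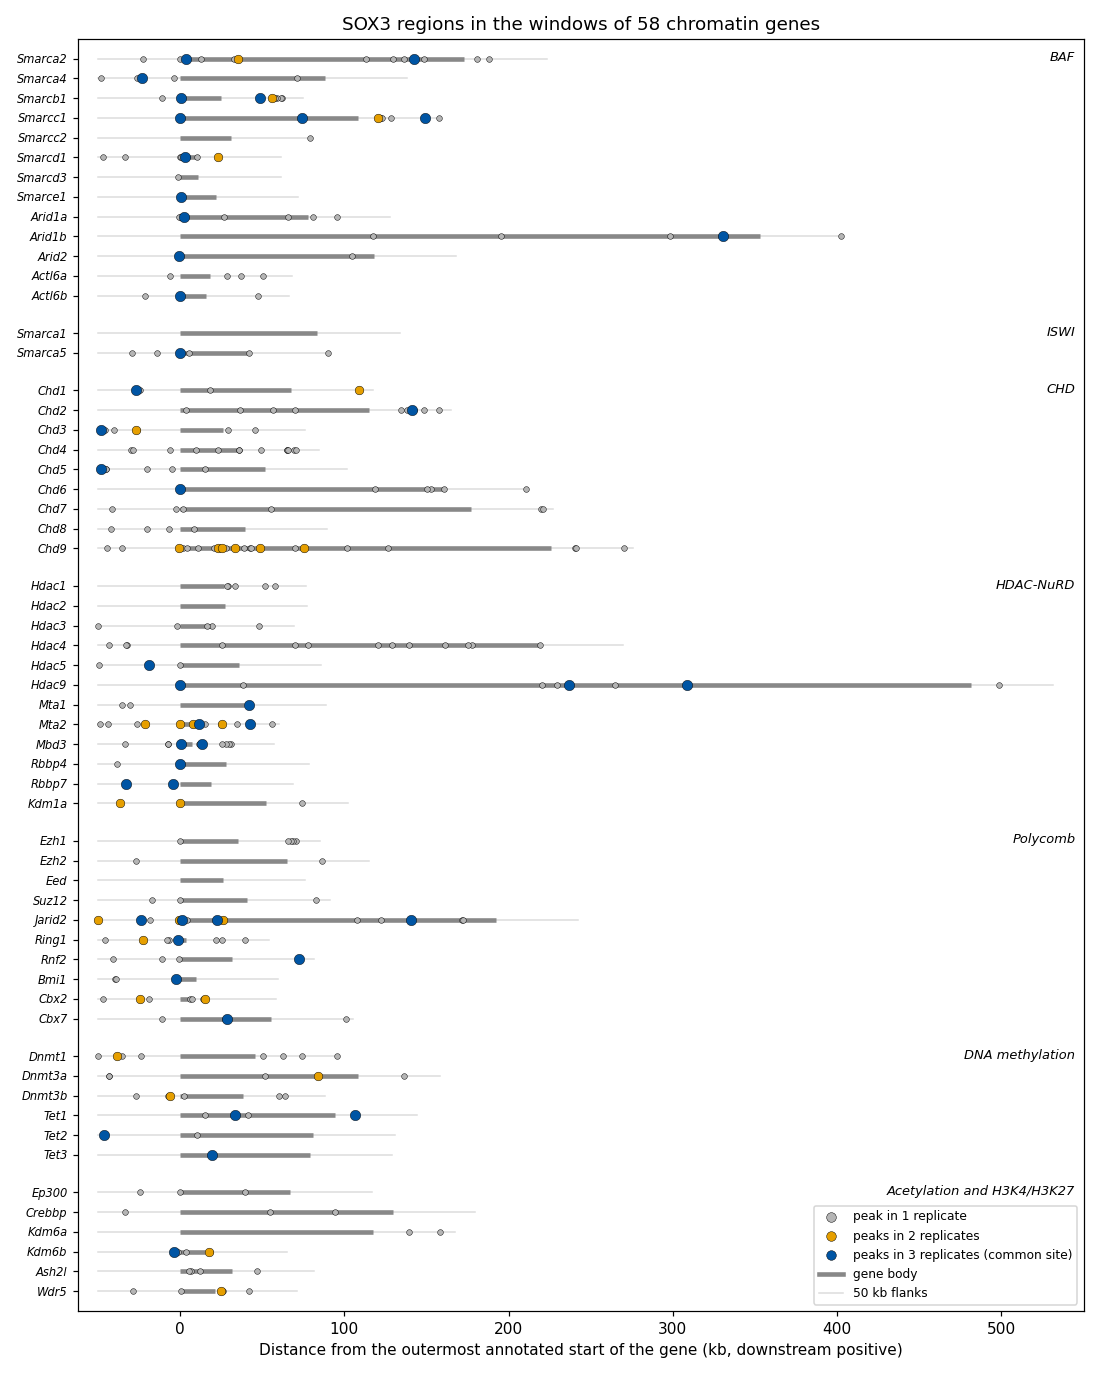
Regions in the window of each gene by distance from its outermost annotated start (x axis, kb, downstream positive), one row per gene in the order of the complexes, coloured by the number of replicates with a peak. Blue points, the common sites, lie in 32 rows, and many of them stand at or just beside 0, while the rows of Smarca1, Hdac2 and Eed hold no point at all.

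The windows of these genes were longer than most, with a median gene length of 40316 bp against 15427 bp over all protein-coding genes. Shares were therefore also set out in 3 groups of equal size by gene length. In the long group, 20 of 38 members (52.6%) had a common site, against 34.6% of all genes of that group. In the middle group the share was 10 of 18 (55.6%) against 28.4%. The short group held 2 members, Ring1 and Mbd3, which both had a common site, against 23.2%.

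Sites at the promoters of the genes themselves were counted next. A common site within 2000 bp of an annotated start of the gene, its own promoter, was found for 15 of 58 members (25.9%), against a background of 4.79%. These were Smarca2, Smarcb1, Smarcc1, Smarce1, Arid1a, Arid2 and Actl6b of BAF, Smarca5 of ISWI, Chd6 of the CHD family, Hdac9, Mbd3 and Rbbp4 of the deacetylases and NuRD, Jarid2 and Ring1 of Polycomb, and Tet1. For 12 of them (20.7%, background 4.00%) the site lay at the outermost start, whereas in Smarca2, Arid1a and Tet1 it lay at an inner start only. Without replicate 2 the count was 18 (31.0%, background 7.78%), with Chd9, Mta2 and Kdm1a added, and at a p-value of 1e-10 or less it was 7 (12.1%, background 1.99%), namely Smarca2, Smarcc1, Actl6b, Smarca5, Hdac9, Mbd3 and Rbbp4.

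CpG-rich starts, with at least 50% GC and an observed to expected CpG ratio of at least 0.6 over 500 bp, were found in 51 members (87.9%) and in 53.9% of all genes. Among genes with such a start, 13 of 51 members (25.5%) had a common site at their own promoter, against 6.99% of all such genes. The other 2 of the 15, Hdac9 and Tet1, were among the 7 members without a CpG-rich start (28.6%, background 2.22%). A peak of at least 1 replicate lay at the own promoter of 34 members (58.6%, background 29.8%), and peaks of at least 2 replicates in 1 region at that of 19 (32.8%, background 9.03%). These counts are nested, and both include the 15 members with peaks of 3 replicates. No test was made over these members, which were chosen by hand. The authors had already linked promoter peaks of these data to chromatin modification genes, Rbbp4 among them. The higher share at own promoters is therefore not independent of that result.

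**Figure D2:**
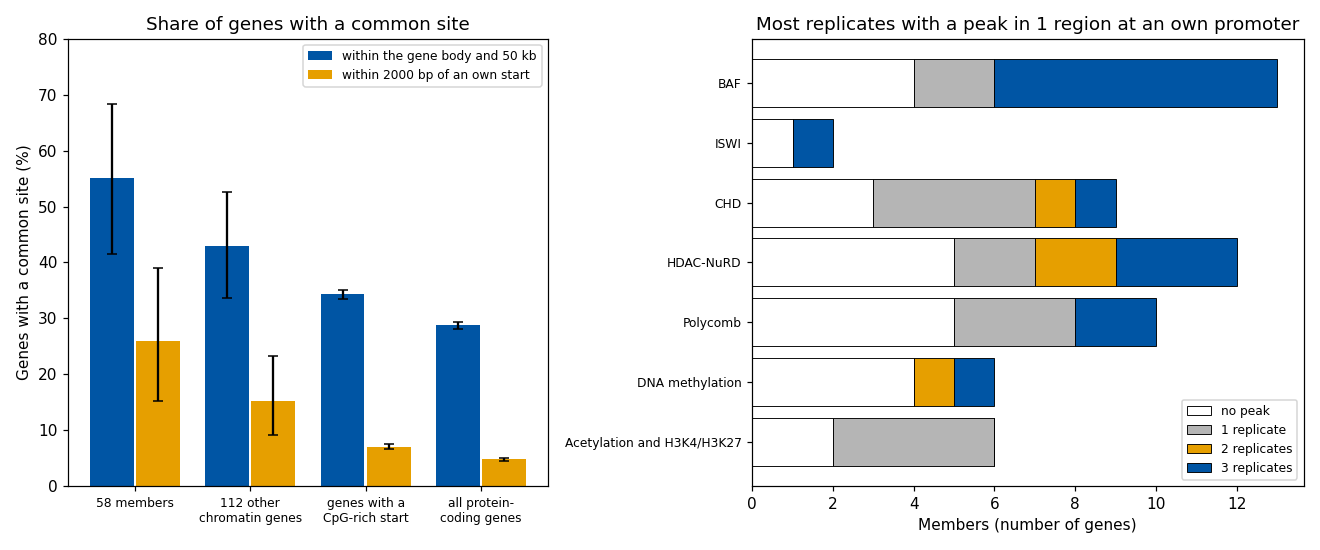
Left, percent of genes with a common site in the window (blue) or at an own promoter (orange) for the 58 members, 112 other chromatin genes, genes with a CpG-rich start and all protein-coding genes, with exact 95% binomial intervals that cover counting error only. Right, number of members of each complex by the most replicates with a peak in 1 region at an own promoter. BAF has 7 of 13 members with 3 replicates there, and the last group has none.

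To see whether the pattern extended past the members, 112 other genes for chromatin proteins were counted in the same way. This list, too, was written with earlier results of these data known. A common site lay in the window of 48 (42.9%) and at the own promoter of 17 (15.2%). The 17 were Phf10, Dpf2 and Actb of BAF, Baz1b, Gatad2a, Sin3b, Rcor2, the Polycomb genes Mtf2, Pcgf2, Phc1 and Kdm2b, Uhrf2, Kat7, and the histone methylation genes Kmt2b, Ehmt1, Dot1l and Men1. Both shares were lower than those of the members and higher than those of all protein-coding genes, with no test of either difference.

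In BAF, 7 of 13 members had a common site at their own promoter (53.8%, background 4.79%) and 10 of 13 in the window (76.9%, background 28.7%). Both counts fell under stricter settings. At a p-value of 1e-10 or less, 3 of 13 had a promoter site (23.1%, background 1.99%) and 4 of 13 a site in the window (30.8%, background 15.2%). With equal numbers of peaks the counts were the same, and no background was counted. At both settings 3 of 12 genes of the deacetylases and NuRD kept a promoter site. Among 16 other BAF genes, 3 (18.8%) had a common site at their own promoter and 7 (43.8%) in the window. The one with the highest lowest percentile lay 84 bp upstream of Actl6b, the actin-related subunit of neuronal BAF, with scores of 432, 243 and 375 in replicates 1, 2 and 3, or percentiles 95.5, 89.4 and 97.3. In replicate 3 alone, the first Smarca2 site and the farther Smarcc1 site, both given below, scored higher. The window of Actl6a, its progenitor counterpart, held 4 regions of 1 replicate each and none at its promoter. Both genes have a CpG-rich start, with a CpG ratio of 0.83 for Actl6b and 0.89 for Actl6a.

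Of the exchangeable BAF ATPases, Smarca2 (BRM) had common sites at 2 of its inner starts and Smarca4 (BRG1) none at its own promoter. The first Smarca2 site, 3479 bp inside the gene, scored 292, 214 and 399, and the other, 142416 bp inside, scored 321, 103 and 181. Both were inside the upper part of each list, with the lowest percentile, 62.5, at the inner site in replicate 2. The single common site in the Smarca4 window lay 23268.5 bp upstream, at the promoters of Yipf2 and 1810026J23Rik, and its percentiles were 55.3, 38.3 and 85.0.

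Among the core and accessory subunits, Smarcb1 (SNF5), Smarcc1 (BAF155) and Smarce1 (BAF57) had promoter sites. The Smarcc1 site, 62 bp upstream of the start, scored 104, 108 and 180.3. The Smarce1 site, 20 bp from an inner start and 551 bp from the outermost, scored 58.65, 123 and 127, and was the 1 region of that window. The Smarcb1 site, 418.5 bp downstream of the outermost start, scored 148, 58.4 and 69.65. By percentile these 2 sites went opposite ways, with 77.1, 22.9 and 60.0 for Smarcb1 and 26.7, 71.3 and 87.4 for Smarce1.

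The windows of Smarcb1 and Smarcc1 also held distal common sites with higher percentiles than those at their promoters. The one 48516.5 bp downstream of the Smarcb1 start scored 236, 168 and 369, and its nearest start was that of Mif. The one 149290 bp downstream of the Smarcc1 start scored 218, 126 and 393 and lay beyond the end of the gene. The authors listed an intergenic peak at this place under Cspg5. A weaker site stood inside a Smarcc1 intron, with percentiles of 80.3, 57.6 and 88.9. Smarcd1 (BAF60a) had a common site in its intron, 2909.5 bp from its start, which counted as a promoter site of Gm17241, while its own promoter held separate peaks of replicates 1 and 3. Smarcc2 (BAF170) and Smarcd3 (BAF60c) had 1 region each, of 1 replicate, which for Smarcd3 lay at its promoter.

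The ARID subunits target BAF and PBAF, the related complex that holds Arid2, to DNA. Arid2 had a promoter site 710.5 bp upstream of the start, with scores of 81.1, 229.7 and 315, near the middle of the list of replicate 1 and high in the other two. The Arid1a site, 410 bp upstream of an inner start, scored 182, 98.0 and 89.45, and the promoter around the outermost start held 2 separate peaks of replicate 1. Arid1b had its only common site in an intron, 330267.5 bp inside the gene, with percentiles of 15.5, 12.9 and 86.0, which places it near the floor of 2 of the 3 lists.

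The ISWI ATPases gave opposite pictures. Smarca5 (SNF2H) had a site 30.5 bp upstream of its start with scores of 549, 185 and 282, the highest score in replicate 1 among all own-promoter sites. The window of Smarca1 (SNF2L) held no peak of any replicate.

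Common sites were found in the windows of 5 of 9 CHD genes (55.6%, background 28.7%), and 1 of these, Chd6, had it at its own promoter (11.1%, background 4.79%). At a p-value of 1e-10 or less, 2 of 9 had a site in the window (22.2%, background 15.2%) and 0 at a promoter. The Chd6 site lay 136.5 bp upstream of the start and scored 151, 61.5 and 95.2. The site with the highest scores in a CHD window was that of Chd2, with 983, 608 and 1203 (percentiles 99.1, 98.2 and 99.7). It lay beyond the end of Chd2, 9204 bp from the nearest start of Rgma, a co-receptor for BMP proteins, and inside an intron of that gene. The Chd1 window reached Rgmb, the paralogue of Rgma, where an intron held a region of replicates 2 and 3 with scores of 71.7 and 127.

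The Chd5 window held a site inside Hes3, a repressor gene of the HES family that acts in neural progenitors, 48065 bp upstream of Chd5. Its scores were 552, 254 and 331. For Chd1, an ATPase that binds H3K4-methylated histones, the common site lay 26883 bp upstream with percentiles of 93.9, 41.8 and 77.7. The common site of the Chd3 window, 48188 bp upstream of Chd3, was the one also found 3939 bp upstream of Kdm6b. All of these CHD sites other than that of Chd6 thus lay well away from the CHD gene, and for Chd2, Chd3 and Chd5 another gene was nearer.

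Chd4, the main ATPase of NuRD, had 13 regions in its window, all of 1 replicate, and Chd7 and Chd8 had 6 and 4 such regions. Chd9 had 23 regions, more than any other member, of which 17 came from 1 replicate and 6 from 2, and none from 3. Per 100 kb of window this was 7.06 regions, against a median of 2.70 over the members and 2.29 over all protein-coding genes. Of its 2-replicate regions, the one 665.5 bp upstream of the start had scores of 195 in replicate 1 and 97.2 in replicate 3 and no peak in replicate 2. Chd2 had a strong peak of replicate 1 alone at an inner start, with a score of 239.

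Of the deacetylases, the class I genes Hdac1, Hdac2 and Hdac3, which are the catalytic subunits of NuRD and related complexes, had no common site, where 28.7% of all genes had one, and the Hdac2 window held no peak. With flanks of 100 kb, Hdac1 and Hdac3 each had a common site (background 42.1%). All the regions of the Hdac1 and Hdac3 windows, 5 each, came from 1 replicate. Among the class IIa genes, Hdac9 had 3 common sites and Hdac5 had 1, while the 13 regions of Hdac4 were all of 1 replicate. The Hdac9 promoter site, 51.5 bp upstream of the start, scored 189.5, 151 and 330.3 and held the composite word. Its CpG ratio was 0.21, low for a promoter.

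The other Hdac9 sites lay in introns, 236746.5 bp and 308649 bp inside the gene. The farther one scored 179.9, 116 and 178, and both held each of the SOX words. The Hdac5 site lay at the promoter of BC030867, 18661 bp upstream of Hdac5, with percentiles of 50.5, 1.56 and 35.3, the lowest of any member site in replicate 2 and in replicate 3.

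The 5 NuRD subunits of the set that are not enzymes, Mta1, Mta2, Mbd3, Rbbp4 and Rbbp7, each had a common site in the window (background 28.7% of genes), but this grouping was made after the values were known. Of 4 further NuRD subunits of this kind, outside the set, Gatad2a and Gatad2b had a common site and Mta3 and Mbd2 had none. Mbd3, the methyl-binding domain subunit, had 1 at its promoter, 741.5 bp downstream of the outermost start, with scores of 405, 157 and 234. Rbbp4, a histone-binding WD40 protein shared by NuRD and PRC2, had a site 4.5 bp from its start, the closest of all, with scores of 189, 133 and 143. The Rbbp4 site was also within 2000 bp of a start of Zbtb8os.

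Rbbp7, the paralogue of Rbbp4, had no peak at its promoter and 2 common sites upstream. The nearer, 4144 bp upstream, scored 219, 148 and 289 and held the composite word. The site in the Mta1 window, with 427, 218 and 314, lay 76 bp from the start of Crip2, and a second Mbd3 site, with 275, 138 and 161, lay inside Mex3d. Mta2 had 15 regions in a window of a short gene, 13.6 per 100 kb and the highest density of the members. Its 2 common sites lay near Tut1 and Ahnak, and its own promoter held a region of replicates 1 and 3, with scores of 116 and 132. Kdm1a (LSD1), which removes H3K4 methylation, had a weak region of replicates 1 and 3 at its promoter, with scores of 55.6 and 55.1.

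In Polycomb, Jarid2 stood apart from the PRC2 core genes counted in that group. Jarid2, which recruits PRC2 to chromatin, had 4 common sites, the most of any member. The site in its intron, 22447 bp from the outermost start, scored 1495, 654 and 1191, the highest of the 44 sites in replicates 1 and 2, at percentiles 99.7, 98.5 and 99.7. A second intronic site, 140448.5 bp inside the gene, scored 686, 232 and 709, and a site 23826.5 bp upstream scored 254, 171 and 254. By contrast, the Jarid2 promoter site was weak, with scores of 64.3, 51.3 and 65.7 and a percentile of 4.47 in replicate 2.

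The PRC2 core genes counted under Polycomb had no region of 2 or more replicates. These are Ezh1 and Ezh2, the H3K27 methyltransferases, and their partners Eed and Suz12. Rbbp4, which PRC2 shares with NuRD, and its paralogue Rbbp7 were counted with NuRD, and both had common sites. This grouping was made after the values were known. The Eed window held no peak, Ezh2 had 2 regions away from its promoter, and the promoters of Ezh1 and Suz12 held 1 peak of replicate 1 each, with scores of 51.8 and 154. None of the 4 genes Ezh1, Ezh2, Eed and Suz12 had a common site, against 28.7% of all genes with one. With flanks of 100 kb Ezh2 had a common site (background 42.1%).

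Of the 5 PRC1 genes, Ring1, Rnf2, Bmi1 and Cbx7 had 1 common site each (background 28.7%), and Cbx2 had none. At a p-value of 1e-10 or less, 0 of the 5 had one (background 15.2%). Ring1, an H2A ubiquitin ligase, had its site 1267 bp upstream, with scores of 235, 77.7 and 139.7. This site was closer to the start of H2-Ke6, at 811 bp. The Bmi1 site lay 2767 bp upstream at the promoter of Commd3, with percentiles of 70.7, 58.4 and 89.0, the Rnf2 site lay beyond the gene at the promoter of 1190005F20Rik, and the Cbx7 site lay in an intron of Cbx7 with percentiles of 81.3, 54.2 and 89.7. The Cbx2 window held 2 regions of replicates 1 and 3, 1 of them at the promoter of Cbx8, another chromobox gene, with scores of 52.7 and 83.3.

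Among the genes of DNA methylation, common sites were found for all 3 TET genes, which oxidise 5-methylcytosine, and for none of the 3 methyltransferases, against 28.7% of all genes. This split, too, was made after the values were known. The Tet3 site, in an intron 19665.5 bp from the outermost start, scored 380.2, 280.4 and 477 and was the only region of its window. Tet1 had a site 113 bp upstream of an inner start, which scored 161, 80.6 and 174, and another at the promoter of Ccar1. The Tet2 site lay 46511 bp upstream, with percentiles of 26.2, 29.0 and 72.6.

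The contrast between these enzymes depended on the replicates used. Dnmt1, which copies methylation after replication, and Dnmt3b, which places it anew, had regions of replicates 1 and 3. Dnmt3a, also a de novo methyltransferase, had a region of replicates 2 and 3 at an inner start, with scores of 94.8 and 65.3. Without replicate 2, 2 of the 3 methyltransferases had a site shared by the lists that remained (background 39.4%), and without replicate 1 it was 1 of 3 (background 37.3%). At a p-value of 1e-10 or less, 1 of the 3 TET genes, Tet3, and none of the methyltransferases remained (background 15.2%).

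The last group had 1 common site, in the window of 1 of 6 genes (16.7%, background 28.7%). The acetyltransferase genes Ep300 and Crebbp each had 3 regions, all of 1 replicate. Kdm6a (UTX), an H3K27 demethylase on the X chromosome, had 2 regions of 1 replicate, whereas Kdm6b (JMJD3), its paralogue, had a common site 3939 bp upstream with scores of 115, 81.7 and 146. Of the H3K4 methyltransferase partners, Ash2l had 4 regions of 1 replicate and Wdr5 a region of replicates 1 and 3, with scores of 57.7 and 67.8.

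In all, 26 members had no common site. No region of 2 or more replicates was found for 19 of them, namely Smarcc2, Smarcd3, Actl6a, Smarca1, Chd4, Chd7, Chd8, Hdac1, Hdac2, Hdac3, Hdac4, Ezh1, Ezh2, Eed, Suz12, Ep300, Crebbp, Kdm6a and Ash2l. The other 7 were Chd9, Kdm1a, Cbx2, Dnmt1, Dnmt3a, Dnmt3b and Wdr5. The share of all protein-coding genes without a region of 2 or more replicates in the window was not counted. Whether the members differed from other genes in this respect was therefore not tested. A window without a common site shows only that no stretch passed the threshold in every list, which the shortest list, that of replicate 2, limits.

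Of the 44 common sites, 26 were at a promoter of some protein-coding gene, a share of 59.1% (95% exact binomial interval 43.2 to 73.7), against 19.2% of all 5343 common sites. Within the windows of all protein-coding genes the share was 25.0% of 4102 common sites. The share depended on the width of the window, and with flanks of 100 kb it was 38.0% (30 of 79 sites), below the interval given. A member's own promoter held 16 of the 26, and 10 were at the promoter of another gene only. The sites at own promoters lay at a median of 136 bp from the start, and none farther than 1369 bp. Of the 18 distal sites, 9 were intronic, 8 of these in an intron of a member, and 9 intergenic, at a median of 30987 bp from the nearest start of the member. A member had the nearest start for 28 of the 44 sites.

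Promoter and distal sites were compared by score within each list. The median percentile of promoter sites was 83.2, 61.4 and 89.3 in replicates 1, 2 and 3, and that of distal sites 86.7, 67.6 and 92.7. The difference was −3.45, −6.23 and −3.38 points, with a mean of −4.35 ± 1.62 (SD, n = 3). A two-sided exact permutation test of the signs gave p = 0.25, the smallest value that 3 replicates allow. The test treats the replicates as independent, although replicates 2 and 3 stood closer to each other. The direction of the difference was reversed when replicate 1 or replicate 2 was left out, with 1.35 and 4.86 points. Leaving out a list also changed the set of common sites, to 55 and 62. The direction was reversed too with equal numbers of peaks (1.16 points), flanks of 100 kb (8.68) and the nearest gene only (0.179). At the other settings for which it was computed the sign was kept. Over all common sites the differences were −1.66, −8.17 and −2.16 points. Over the 44 sites, the median percentiles of 84.5, 63.8 and 90.5 were close to those of all common sites, 82.6, 65.1 and 92.8.

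**Figure D3:**
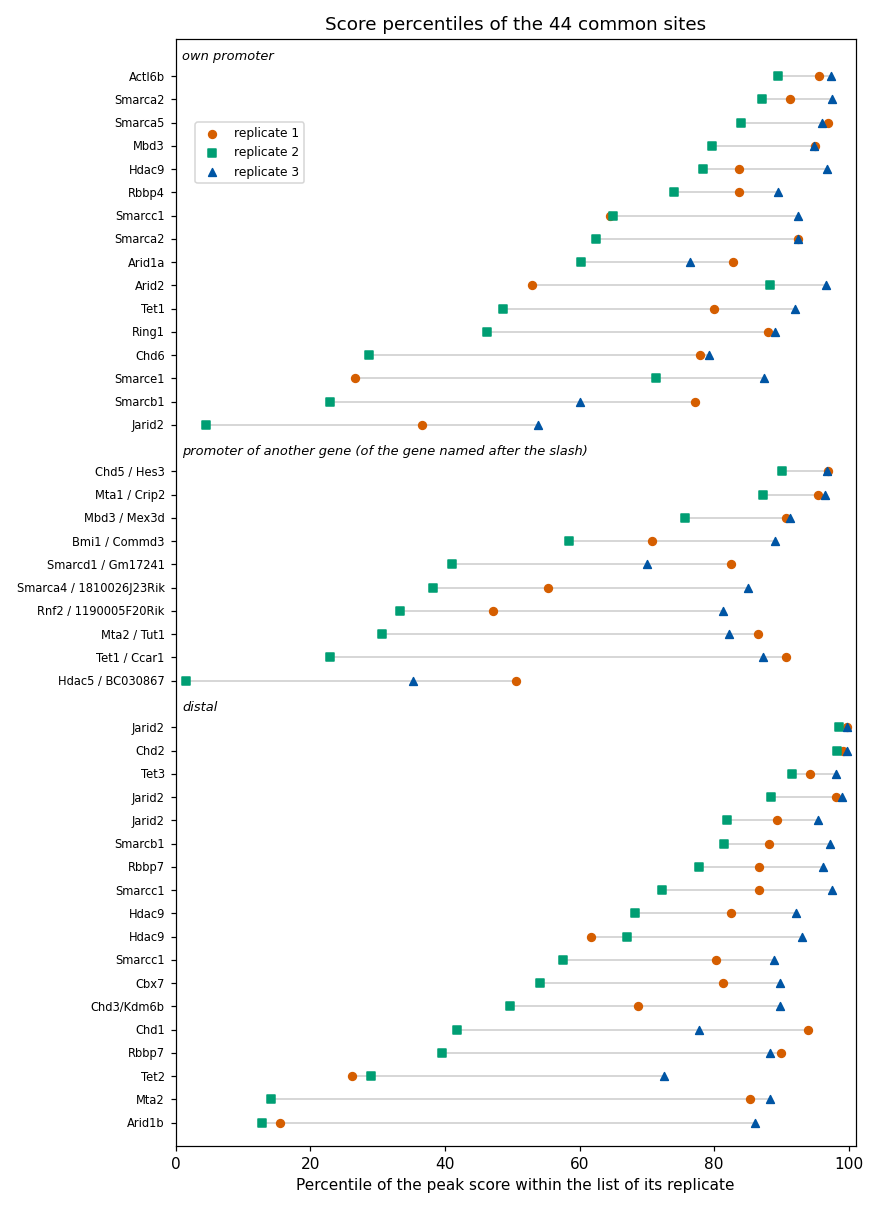
Percentile of the peak score within the list of its replicate (x axis) for each of the 44 common sites, grouped as own promoter, promoter of another gene and distal, and ordered by the lowest of the 3 percentiles. The intronic Jarid2 site and the Chd2 site stand at the right edge in all replicates, while replicate 2 (green squares) lies lowest in most rows.

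The replicates did not order the sites alike. Spearman's rho of the percentiles over the 44 sites was 0.65 for replicates 1 and 2, 0.65 for replicates 1 and 3, and 0.90 for replicates 2 and 3, and over all common sites it was 0.70, 0.67 and 0.91. These are correlations across sites of the same libraries and are given as a description. The Arid2 and Smarce1 promoter sites show the difference, with percentiles of 52.9 and 26.7 in replicate 1 and of 96.6 and 87.4 in replicate 3.

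The 2 kinds of site differed in base composition. The median observed to expected CpG ratio was 0.81 at promoter sites and 0.24 at distal sites, and 18 of 26 promoter sites (69.2%) were CpG-rich, against 1 of 18 distal sites, the second intronic site of Jarid2. Over all common sites, 51.0% of promoter and 4.43% of distal sites were CpG-rich. The promoter sites with low ratios included those of Hdac9 and Ring1 and the inner starts of Smarca2 and Tet1.

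**Figure D4:**
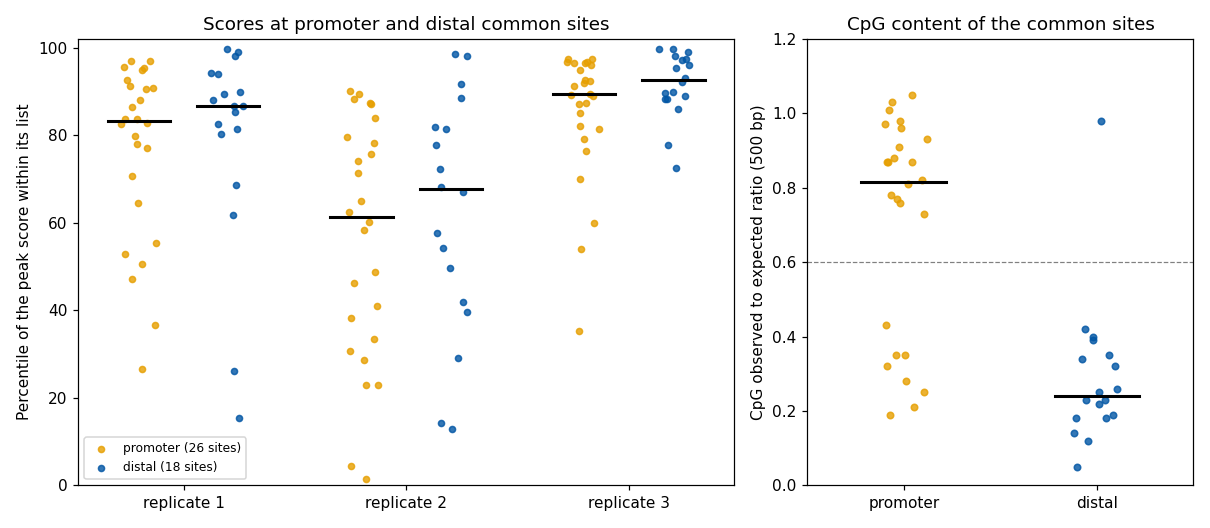
Left, percentile of the peak score at promoter (orange, 26) and distal (blue, 18) common sites in each replicate, with the median as a bar. Right, observed to expected CpG ratio over 500 bp, with a dashed line at 0.6. The percentiles overlap in each replicate, while most promoter sites lie above the dashed line and 1 distal site does.

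Short words were counted on both strands of the common stretches and of 2 windows of equal width, 2000 bp away on either side. The word AACAAA, or its form that ends in T, was found in 22 of 44 sites (50%), in 38.6% of their flanking windows and in 54.2% of all common sites. The word GACAAA, or its form that ends in T, was found in 12 of 44 (27.3%), against 28.4% of the flanks and 39.3% of all common sites. The intervals for the members overlapped those of the flanks for both words. The POU octamer was found in 6 sites (13.6%, interval 5.17 to 27.4) and in 0 of 88 flanks (interval up to 4.11%), and in 10.1% of all common sites and 3.29% of their flanks. These 6 were the sites of Tet3, Kdm6b, the Hdac9 and Chd6 promoters, the first Smarca2 site and the upstream site of Jarid2.

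The composite word was found in 4 sites, those of Chd2 and Rbbp7, the Hdac9 promoter and the first Smarca2 site, and in 6.70% of all common sites against 0.318% of their flanks. GGGCGG, the GC box, was found in 13 of 26 promoter sites (50%) and in 0 of 18 distal sites, against 39.2% and 10.1% of all promoter and distal common sites. Several promoter sites held no SOX word, among them those of Smarca5, Smarcc1, Smarcb1, Arid1a and Chd6. CCAAT was found in 40.9% of the 44 sites and in 37.5% of their flanks, against 29.1% of all common sites and 33.5% of their flanks. None of the 44 sites was mostly multi-copy, meaning that over 50% of its 50-base sequences occur elsewhere in the genome, compared with 15.4% of all common sites. The Smarca5 promoter site was just under this limit, at 45.9%, and the second intronic site of Jarid2 was at 30.8%.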

How the data were processed

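SOX3 ChIP-seq of NP cells was taken from 1 list of peaks per biological replicate. The authors aligned reads to mm9 with Bowtie (1.0.0 in the submitters' processing notes) and called peaks in each replicate with MACS (version not given in the sources used here), at a p-value threshold of 1e-05 with the input as background (bandwidth 300, model fold from 10 up to 30). The deposited score is −10 times the log10 of that p-value. It was not normalized between replicates, and the depth of the libraries is unknown because no read counts are listed. The input was not analysed here.

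Overlapping peaks (at least 1 bp) were merged into regions. A common site was placed by the middle of its widest stretch covered by all lists. Starts and genes came from GENCODE vM1 on NCBIM37, the assembly of mm9. Hdac4 has 2 gene models, which were joined. A percentile is the rank of a score in its list. Words were counted exactly. Sites at the own promoter of a member and the 12 other sites with the highest lowest percentile were described in every replicate. The members, the other chromatin genes and the lists were chosen with earlier results of these data known, and the roles within complexes, the composite word and the exclusion of exons from printed sequences were added after the data were seen. Shares carry exact binomial intervals for counting error only. With 3 replicates the sign permutation test cannot go below 0.25. The settings tried were a p-value of 1e-10, the 8096 best peaks of each list, a reciprocal overlap of 50%, a peak of every list in the merged region, windows of the gene body and 2000 bp, flanks of 20 and 100 kb, promoters within 1000 and 5000 bp, each replicate left out, multi-copy sites left out and, added after the data were seen, replicates 2 and 3 counted as 1 and members as the nearest gene only. Site building was tested on simulated data. Python 3.11.15, numpy 2.4.6, scipy 1.17.1, pysam 0.24.0, numba 0.67.0 and matplotlib 3.10.9 were used.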

Additional observations from a re-analysis of the deposited data

How the results depend on the processing

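With peaks limited to a p-value of 1e-10 or less, 14 members had a common site, 7 had one at their own promoter, and 20 sites remained in the windows. With the 8096 best peaks of each list, 21 members had a site and 9 had one at their own promoter. With windows of the gene body and 2000 bp to each side, 20 members had a site and 26 sites were counted. With flanks of 100 kb there were 79 sites, and 38.0% of them were at a promoter. When a site was counted only for the gene with the nearest start, an alternative chosen after seeing the data, 21 members and 28 sites were left. No share of all protein-coding genes was counted for the 8096 best peaks, the gene body and 2000 bp, or the nearest gene. Whether an excess over the background held at these settings was not tested. Leaving out 1 replicate at a time gave 32 to 38 members with a site, 15 to 18 with one at their own promoter, 44 to 62 sites and a promoter share of 53.2 to 59.1%, with the highest counts without replicate 2. Counting replicates 2 and 3 as 1, also chosen after seeing the data, gave the values found without replicate 2. This adds no further check, because every region in the windows with a peak of replicate 2 also held one of replicate 3.

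The difference between promoter and distal percentiles was reversed with equal numbers of peaks (1.16 points), with flanks of 100 kb (8.68), when a member had to be the nearest gene (0.179), and when replicate 1 or 2 was left out, with a range of −4.84 to 4.86 over the replicates left out. The cause was not tested. The other alternatives kept each count within 1.5 times its value.

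No paired analysis was possible because there is 1 group of samples and no other to pair it with by replicate number. The promoter and distal sites were compared within each list. Peak lists show where a threshold was passed, not how much SOX3 was bound, and the depth behind them is unknown. Near other genes a window cannot tell which gene a site belongs to.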

Other observations

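The following regions did not reach 3 replicates and were picked after their values were seen. In the Hdac1 window, a peak of replicate 1 alone inside Marcksl1 had a score of 308, at percentile 92.0 of its list. Upstream of Dnmt3b, 6193 bp from its start, a region of replicates 1 and 3 scored 76.9 and 206. In an intron of Chd9, a region of replicates 2 and 3 scored 79.4 and 189, and another, of replicates 1 and 3, scored 52.2 and 147. The Mta2 window held regions at the promoters of B3gat3, with 93.9 and 86.8 in replicates 1 and 3, and of Eef1g, with 62.0 and 71.1 in replicates 2 and 3. In Mta2 itself, an intronic region of replicates 2 and 3 scored 107 and 111.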
